A study of Mus musculus with 12 samples.

Results

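The 47 genes described here encode the lysosomal proton pump (the V-ATPase), its accessory proteins, the lysosome-associated membrane proteins (LAMPs) and the cathepsins. They were taken by name from the 48709 genes in the table: every Atp6v0, Atp6v1, Atp6ap1 and Atp6ap2 gene, Lamp1 to Lamp5, and each gene named Cts with a single further letter. The pattern matched 48 names, and 1 pseudogene name was dropped. The set holds 13 genes of the V1 sector of the pump, 9 of the V0 sector, 3 accessory genes, 4 LAMPs and 18 cathepsins. Of the 47, 32 reached 1 TPM or more in no fewer than 3 of 12 libraries and were tested (9 V1, 6 V0, 2 accessory, 2 LAMPs and 13 cathepsins). TPM corrects reads for the length of the transcript and for the depth of the library, so levels can be set beside each other between genes.

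The RNA was that of CD8 T cells from OT-I animals, mice that carry a transgenic T cell receptor for an ovalbumin peptide. Naive cells were taken unstimulated from the spleen. The 24h, 48h and 72h groups were collected 24, 48 and 72 h after activation was begun with anti-CD3 at 2 ug/ml and anti-CD28 at 1 ug/ml, with IL-2 at 10 ng/ml. Activation lasted 48 h, after which cells left the antibody plates, so cells of the 72h group had spent their last day off them. Each group had 3 libraries, which the submitters describe as biological replicates. The animals behind each replicate, their age and whether animals were pooled are not stated in the labels, so p-values measure the spread between these libraries. The extraction notes speak of transferred OT-I cells, and whether that applies to these libraries is not given either.

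The V-ATPase is a rotary pump that uses ATP to move protons into lysosomes. In its cytosolic V1 sector, A and B subunits form the ATP-hydrolysing head, D and F the turning shaft, and C, E, G and H the outer stalks and the hinge to the membrane. In the membrane V0 sector a ring of c subunits carries protons past an a subunit, with the d subunit between ring and shaft. Cathepsins are the proteases that work in the acid this pump makes, and LAMPs coat the inner face of the lysosomal membrane. In cytotoxic T cells the same compartment is the secretory granule, and LAMP1 on the cell surface is the usual sign that granules have been released. Many lysosomal genes are targets of TFEB, a factor that binds E-box motifs in their promoters.

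The TPM values traced back to 14082104 to 19254907 whole reads a library. The summed level of 15 CD8 T cell marker genes, among them Cd8a and Cd3e, was 8645 to 9473 TPM in the Naive libraries, 5669 to 6068 at 24h, 5592 to 5752 at 48h and 6324 to 6397 at 72h. Markers of the labelled cell type were thus high in every library. The Naive libraries also held transcripts of other spleen cells. Summed over 19 myeloid and macrophage markers, levels were 3764, 2705 and 1385 TPM in Naive replicates 1, 2 and 3, 32.99 to 41.3 TPM at 24h, 32.1 to 37.6 TPM at 48h and 10.2 to 12.9 TPM at 72h. Of these 19 genes, 6 were listed at 0 in all 48h and 72h libraries. Summed B cell markers were at most 1068 TPM in any later library, against 6019 to 11750.0 TPM in Naive libraries. Macrophages and B cells are rich in several cathepsins, so these levels are set beside the cathepsin results. In bulk RNA, fewer cells of a type and less RNA per cell cannot be told apart.

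After activation the cathepsins were largely lower, the V0 genes were modestly lower, and of the V1 genes a single one, the catalytic subunit Atp6v1a, rose strongly. A gene was called when limma's adjusted p was under 0.05 and its log2 fold change, on the scale of log2(TPM + 1), was at least 1 in size. At 24h against Naive, 1 member was called higher and 12 lower, of 32 tested, where 25.7% of all 12630 genes tested were called higher and 21.0% lower. At 48h, 1 was called higher and 11 lower, with 24.7% and 20.7% of all genes. At 72h, 1 was again higher and 11 lower, with 24.5% and 19.0% of all genes. Ctsf and Ctsg passed the filter through their Naive values alone and had to differ. Without them the counts over 30 genes were 1 higher with 10 lower at 24h, and 1 higher with 9 lower at 48h and at 72h. Of 17 V-ATPase and accessory genes tested, Atp6v1a was called higher at each time, and 1 was called lower at 24h and 0 at 48h and at 72h.

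Smaller differences were common. By limma's adjusted p alone, 4 members were higher and 25 lower at 24h, where 45.9% and 36.6% of all genes were. At 48h 6 were higher and 22 lower, with 46.2% and 36.7% of all genes, and at 72h 5 were higher and 24 lower, with 47.5% and 34.8%. The median log2 fold change of the 32 members against Naive was -0.46, -0.45 and -0.69 for 24h, 48h and 72h, beside 0.15, 0.15 and 0.21 over all genes. Rescaling by the median of ratios moved the all-gene median by -0.25, -0.22 and -0.27 in these 3 comparisons. Differences of about that size or less therefore turn on the scaling. Under it the share of called genes that were higher was 42.8%, 44.2% and 42.2%, beside 55.0%, 54.4% and 56.3% without it.

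**Figure D1:**
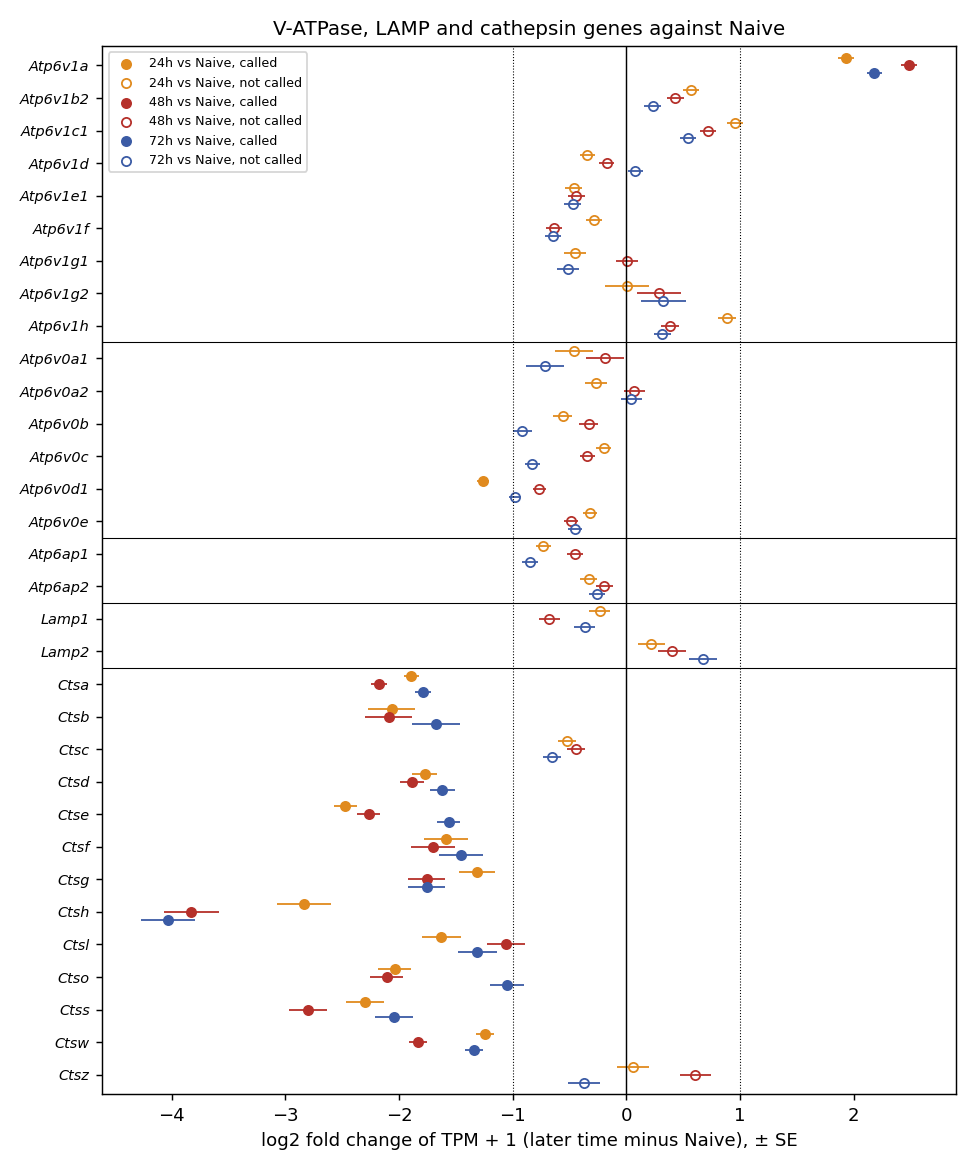
Log2 fold changes of TPM + 1 for the 32 tested genes at 24h, 48h and 72h against Naive (3 libraries a group), with bars for 1 standard error and filled points for called genes; lines separate V1, V0, accessory, LAMP and cathepsin genes. Atp6v1a stands alone beyond +1, at 1.93 to 2.48, while all cathepsins but Ctsc and Ctsz lie beyond -1 at each time.

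Atp6v1a (ENSMUSG00000052459), the catalytic A subunit, gave 15.4, 15.9 and 13.3 TPM in the Naive libraries, 58.6, 60.5 and 59.4 TPM at 24h, 85.7, 91.5 and 86.0 TPM at 48h and 70.8, 72.5 and 69.3 TPM at 72h. Every activated library was above every Naive library, and the 3 later groups did not overlap, with 48h highest. The mean was 87.8 ± 3.24 TPM at 48h and 14.9 ± 1.37 TPM in Naive cells (SD, n = 3 each), a 5.89-fold difference. Log2 fold changes were 1.93, 2.48 and 2.18 against Naive for 24h, 48h and 72h (SE 0.068 each; limma adjusted p = 1.52e-11, 2.06e-12 and 6.9e-12). Between later times Atp6v1a was higher at 48h than at 24h by 0.55 (SE 0.068, limma adjusted p = 2.59e-05), and lower at 72h than at 48h, with a log2 fold change of -0.30 (SE 0.068, limma adjusted p = 0.00323); both were short of the fold minimum. Across all alternatives the rise at 48h against Naive lay between 2.22 and 2.55.

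The promoters were read for the TFEB-type E-box because it is the motif by which this gene set is best known. RefSeq promoters (GRCm38.p6, a different build from the GRCm39 of the deposited values) reach from 250 bases before to 50 after a start and matched 36 of the 47 members by symbol, with 41 windows. The palindrome CACGTG, which reads the same on both strands, occurred in 9 of these windows, in 9 genes, and in 7.15% of all 32851 windows. With a T before it on either strand (TCACGTG, a subset of the same matches), it occurred in 7 member windows and in 3.77% of all windows. The genes with CACGTG were Atp6v1a, Atp6v0b, Atp6v0d1, Atp6v0e, Lamp1, Ctsa, Ctsd, Ctsf and Ctsl, of which the last 2 lack the longer form. The 250 bases before the start are shown for Atp6v1a (chr16:44139260-44139509, minus strand), the member that rose, for Ctsd (chr7:142387828-142388077, minus strand) and Ctsa (chr2:164833523-164833772, plus strand), which fell, and for Lamp1 (chr8:13158911-13159160, plus strand), which has the most copies, with CACGTG in capitals.
Atp6v1a: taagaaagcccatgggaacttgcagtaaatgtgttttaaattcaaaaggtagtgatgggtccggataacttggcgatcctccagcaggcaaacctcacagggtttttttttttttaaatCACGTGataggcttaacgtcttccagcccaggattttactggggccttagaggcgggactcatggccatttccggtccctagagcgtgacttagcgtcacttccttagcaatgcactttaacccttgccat
Ctsd: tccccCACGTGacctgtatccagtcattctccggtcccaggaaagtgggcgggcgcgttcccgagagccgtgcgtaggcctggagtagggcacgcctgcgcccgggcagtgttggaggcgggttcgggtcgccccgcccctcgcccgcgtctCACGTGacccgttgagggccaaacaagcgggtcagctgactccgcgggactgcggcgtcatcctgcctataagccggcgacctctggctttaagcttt
Ctsa: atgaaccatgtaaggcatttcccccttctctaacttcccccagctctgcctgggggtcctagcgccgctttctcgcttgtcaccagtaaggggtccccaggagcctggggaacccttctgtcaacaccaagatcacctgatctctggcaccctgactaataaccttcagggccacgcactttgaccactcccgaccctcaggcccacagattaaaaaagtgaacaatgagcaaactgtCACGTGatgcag
Lamp1: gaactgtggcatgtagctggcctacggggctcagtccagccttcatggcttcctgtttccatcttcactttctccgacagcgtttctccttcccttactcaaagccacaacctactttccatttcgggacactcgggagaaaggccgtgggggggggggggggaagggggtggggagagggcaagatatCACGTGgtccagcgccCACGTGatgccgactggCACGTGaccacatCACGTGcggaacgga
The single copy in Atp6v1a begins 131 bases before the start. Ctsd has copies at 245 and 98 bases, Ctsa at 12 bases and Lamp1 at 61, 45, 28 and 15 bases. Ctsa has a further copy just after the start, with its first base at position 6, outside the bases shown. The motif thus stood in the promoter of Atp6v1a, the 1 member called higher against Naive. It also stood in those of some members called lower, Atp6v0d1, Ctsa, Ctsd, Ctsf and Ctsl. Of the other members called lower, Ctsg, Ctso and Ctss had windows without CACGTG, and Ctsb, Ctse, Ctsh and Ctsw were not matched. Of the members higher by adjusted p alone, Lamp2 and Ctsz had windows without CACGTG, and Atp6v1b2, Atp6v1c1 and Atp6v1h were not matched. A match is a description of these letters, and binding was not measured. Tfeb itself averaged 12.4 ± 1.98 TPM in Naive cells, 7.23 ± 1.37 TPM at 24h, 6.51 ± 0.47 TPM at 48h and 4.18 ± 0.282 TPM at 72h (SD, n = 3 each).

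The other V1 genes split into genes that were higher and genes that were lower, none of them called. Atp6v1b2, the partner of A in the head, gave 47.5, 42.4 and 39.2 TPM in the Naive libraries, 61.6, 66.4 and 64.1 TPM at 24h, 55.3, 58.5 and 60.8 TPM at 48h and 50.8, 50.5 and 50.2 TPM at 72h. All later libraries were above all Naive ones, with log2 fold changes of 0.57, 0.43 and 0.23 against Naive for 24h, 48h and 72h (SE 0.072 each; limma adjusted p = 6.9e-06, 9.01e-05 and 0.00956). The 72h value changed sign to -0.08 under median-of-ratios scaling and to -0.09 under quantile normalization. Atp6v1c1, the outer-stalk subunit that joins V1 to V0, averaged 99.2 ± 7.33 TPM at 24h and 50.6 ± 1.41 TPM in Naive cells (SD, n = 3 each), a log2 fold change of 0.96 (SE 0.07, limma adjusted p = 2.37e-08) just short of the fold minimum; at 48h it was 0.72 and at 72h 0.54. Atp6v1h, the regulatory hinge subunit, averaged 27.0 ± 1.32 TPM at 24h and 14.2 ± 0.821 TPM in Naive cells, a log2 fold change of 0.88 (SE 0.077, limma adjusted p = 1.51e-07). At later times its difference from Naive was smaller, at 0.38 (SE 0.077, limma adjusted p = 0.000431) for 48h and 0.32 (SE 0.077, limma adjusted p = 0.00193) for 72h. Under median-of-ratios scaling 4 V1 genes were higher by adjusted p at 24h, but 2 at 48h and 2 at 72h, Atp6v1a and Atp6v1c1, and Atp6v1h was at 0.02 at 72h.

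The shaft gene Atp6v1f and the stalk genes Atp6v1e1 and Atp6v1g1 were lower at 24h by adjusted p, as was the shaft gene Atp6v1d. Atp6v1f gave 227, 210.1 and 203 TPM in the Naive libraries, 187, 169 and 169.8 TPM at 24h, 144, 136 and 131 TPM at 48h and 141, 124 and 144 TPM at 72h. No later library reached the lowest Naive library, and log2 fold changes were -0.28, -0.64 and -0.65 against Naive for 24h, 48h and 72h (SE 0.071 each; limma adjusted p = 0.0023, 2.01e-06 and 1.79e-06). Atp6v1e1 averaged 38.2 ± 3.27 TPM at 24h, 38.8 ± 2.61 TPM at 48h and 37.9 ± 1.23 TPM at 72h, each below the 53.0 ± 1.59 TPM of Naive cells (SD, n = 3 each), with log2 fold changes of -0.46, -0.44 and -0.47. Atp6v1g1 gave 136, 119.7 and 108 TPM in the Naive libraries, 90.3, 86.8 and 86.2 TPM at 24h, 139, 116 and 109.6 TPM at 48h and 77.2, 84.9 and 90.2 TPM at 72h. It was lower at 24h (log2 fold change -0.45, SE 0.097, limma adjusted p = 0.000722) and at 72h (-0.52, SE 0.097, limma adjusted p = 0.000252), while the 48h libraries overlapped the Naive ones (adjusted p = 0.985, limma). Atp6v1d gave 125, 109 and 118 TPM in the Naive libraries, 85.0, 96.4 and 95.3 TPM at 24h, 109, 98.2 and 105 TPM at 48h and 127, 121 and 124 TPM at 72h. Its 24h libraries lay below the Naive ones, with a log2 fold change of -0.35 (SE 0.068, limma adjusted p = 0.00036), and its 72h libraries overlapped them (adjusted p = 0.291, limma). Atp6v1g2, a G subunit best known from brain, stayed between 1.18 and 2.92 TPM in every library and passed no test.

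**Figure D2:**
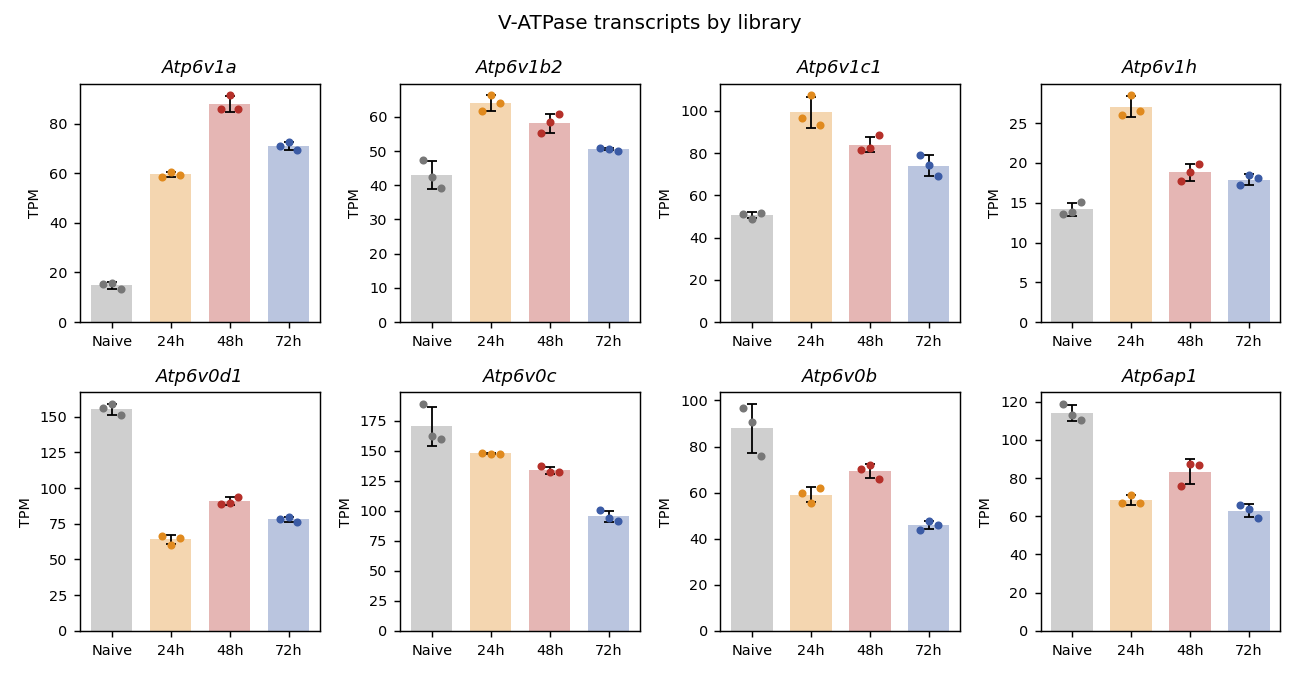
TPM of 8 V-ATPase genes by library (points), with the group mean (bar) and SD (whisker), 3 libraries a group and each panel on its own axis from 0. Atp6v1a, Atp6v1b2, Atp6v1c1 and Atp6v1h are above Naive at each time, and Atp6v0d1, Atp6v0c, Atp6v0b and Atp6ap1 are below it.

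The summed level of the V1 genes overlapped Naive at each time. It was 602.5 to 671.5 TPM in Naive libraries, 635.2 to 657.1 at 24h, 641.1 to 670.4 at 48h and 586.4 to 606.1 at 72h. The A and B subunits stand in equal number in the pump, and the ratio of Atp6v1a to Atp6v1b2 transcripts was 0.324, 0.376 and 0.34 in Naive libraries. It was 0.951, 0.911 and 0.928 at 24h, 1.55, 1.56 and 1.42 at 48h, and 1.39, 1.44 and 1.38 at 72h. Naive libraries thus held fewer A than B transcripts, 24h libraries nearly as many, and 48h and 72h libraries more. Set against the stalk subunit Atp6v1e1, Atp6v1a was 0.251 to 0.311 in Naive libraries, 1.47 to 1.68 at 24h, 2.06 to 2.42 at 48h and 1.77 to 1.93 at 72h. Ratios within a library do not depend on the scaling between libraries.

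**Figure D3:**
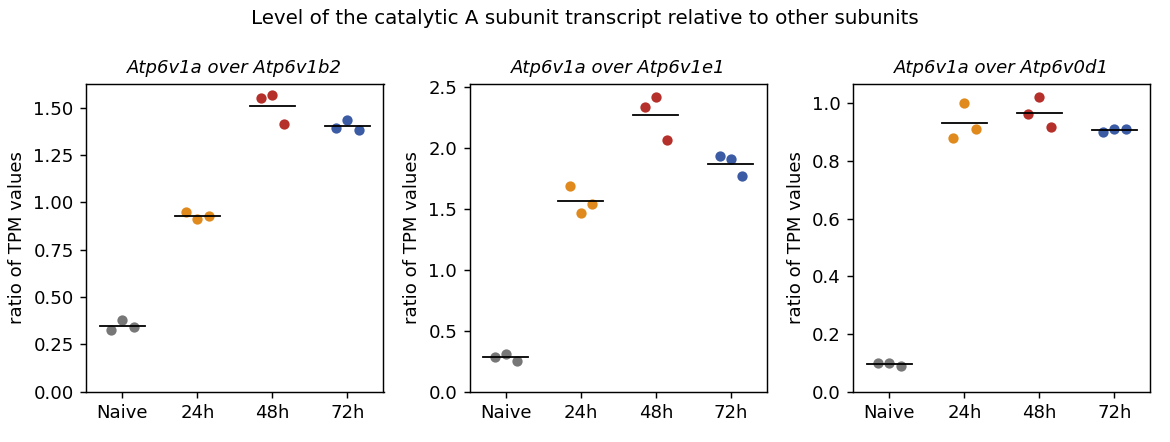
Ratio of Atp6v1a TPM to the TPM of Atp6v1b2, Atp6v1e1 and Atp6v0d1 in each library (points), with the group mean (line), 3 libraries a group. The ratio to Atp6v1b2 lies between 1.38 and 1.56 in the 48h and 72h libraries and between 0.324 and 0.376 in Naive libraries.

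All 6 tested V0 genes were lower at 24h by adjusted p (5 under quantile normalization, where Atp6v0a1 did not pass), and 1 was called. Of all genes tested, 36.6% were lower at 24h by adjusted p and 21.0% were called lower. Atp6v0d1 (ENSMUSG00000013160), the subunit between ring and shaft, gave 156, 159 and 151 TPM in the Naive libraries, 66.6, 60.4 and 65.3 TPM at 24h, 89.0, 89.6 and 93.9 TPM at 48h and 78.7, 79.6 and 76.0 TPM at 72h. Naive libraries were highest with no overlap, and 24h libraries were lowest of all groups. Atp6v0d1 fell at 24h to 64.1 ± 3.28 TPM, against 155 ± 3.87 TPM in Naive cells (SD, n = 3 each), with log2 fold changes of -1.26, -0.77 and -0.98 against Naive for 24h, 48h and 72h (SE 0.055 each; limma adjusted p = 1.14e-10, 2.08e-08 and 1.75e-09). The 48h and 72h values lay inside the fold minimum and passed it under median-of-ratios scaling, at -1.02 and -1.29. The ratio of Atp6v1a to Atp6v0d1 was 0.88 to 1.02 in all later libraries and 0.0883 to 0.1 in Naive ones.

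Atp6v0c, the proton-carrying ring subunit and the most abundant V0 transcript, gave 189, 162 and 159.8 TPM in the Naive libraries, 148, 148 and 148 TPM at 24h, 137, 132 and 132 TPM at 48h and 101, 93.9 and 91.2 TPM at 72h. The 72h libraries were lowest with no overlap, and log2 fold changes were -0.20, -0.34 and -0.83 against Naive for 24h, 48h and 72h (SE 0.066 each; limma adjusted p = 0.0132, 0.000279 and 6.06e-08). Atp6v0b, a second ring subunit, gave 96.9, 90.7 and 76.1 TPM in the Naive libraries, 59.8, 55.4 and 61.8 TPM at 24h, 70.2, 71.8 and 66.1 TPM at 48h and 44.0, 47.6 and 45.9 TPM at 72h. It too was lowest at 72h, with log2 fold changes of -0.56, -0.33 and -0.92 against Naive for 24h, 48h and 72h (SE 0.084 each; limma adjusted p = 3.19e-05, 0.00249 and 2.61e-07). Under median-of-ratios scaling both passed the fold minimum at 72h, at -1.14 for Atp6v0c and -1.23 for Atp6v0b. Atp6v0e, a small membrane subunit, averaged 64.2 ± 3.55 TPM at 24h, 57.0 ± 2.83 TPM at 48h and 58.3 ± 1.39 TPM at 72h, each lower than the 80.3 ± 3.96 TPM of Naive cells (SD, n = 3 each), with log2 fold changes of -0.32, -0.49 and -0.45. The summed V0 level was 522.6 to 565.5 TPM in Naive libraries, 368.4 to 384.5 at 24h, 400.0 to 405.9 at 48h and 317.2 to 335.1 at 72h.

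The a subunits place the pump on particular membranes. Atp6v0a2 was the main form under the name rule, at a mean of 37.5 TPM at 24h, 47.7 TPM at 48h and 46.8 TPM at 72h, beside 45.7 TPM in Naive cells. Its log2 fold change passed the adjusted p at 24h (-0.27, SE 0.096, limma adjusted p = 0.0183), where the libraries overlapped, and did not at 48h or 72h (limma adjusted p = 0.505 and 0.677). Without Naive replicate 2, Naive replicate 3 or 24h replicate 3 it did not pass at 24h either (limma adjusted p = 0.0867, 0.0637 and 0.0818). Atp6v0a1 stayed between 1.496 and 5.12 TPM and was lower than Naive at 24h (-0.46, SE 0.17, limma adjusted p = 0.0213) and at 72h (-0.72, SE 0.17, limma adjusted p = 0.00143). The 24h value for Atp6v0a1 did not pass without Naive replicate 1 (-0.33, limma adjusted p = 0.0885), Naive replicate 2 (limma adjusted p = 0.0588) or 24h replicate 3 (limma adjusted p = 0.0659). The a3 subunit carries the name Tcirg1 and so stands outside the name rule, and it averaged 26.9 ± 2.33 TPM at 24h, 31.2 ± 1.69 TPM at 48h and 32.6 ± 0.204 TPM at 72h, beside 66.0 ± 1.4 TPM in Naive cells (SD, n = 3 each). Tcirg1 fell at 24h by 1.27 and at 48h by 1.06 on the log2 scale (limma adjusted p = 1.61e-09 and 1.06e-08), and at 72h the value of -0.996 was just short of the fold minimum. Tcirg1 was below Atp6v0a2 in every later library, with ratios of 0.629 to 0.768, and above it in every Naive library, with ratios of 1.34 to 1.69. Of the accessory genes, Atp6ap1 (Ac45), which assists assembly of the pump, gave 119, 113 and 110.5 TPM in the Naive libraries, 67.0, 71.3 and 67.0 TPM at 24h, 75.6, 87.5 and 86.6 TPM at 48h and 65.8, 63.8 and 59.2 TPM at 72h. Every later library was below every Naive library, with log2 fold changes of -0.73, -0.45 and -0.85 against Naive for 24h, 48h and 72h (SE 0.069 each; limma adjusted p = 3.34e-07, 3.68e-05 and 7.7e-08). Atp6ap2, the prorenin receptor, differed less, with log2 fold changes of -0.33, -0.20 and -0.26.

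Of the LAMP genes, Lamp1 was lower at each time and Lamp2 higher at 48h and 72h by adjusted p, with no call. Lamp1 (ENSMUSG00000031447) gave 258, 241 and 189 TPM in the Naive libraries, 192, 205 and 182 TPM at 24h, 141, 141 and 143 TPM at 48h and 173, 181 and 174 TPM at 72h. The 48h libraries were lowest with no overlap, and the 24h libraries overlapped the Naive ones. Log2 fold changes were -0.24, -0.68 and -0.37 against Naive for 24h, 48h and 72h (SE 0.092 each; limma adjusted p = 0.0296, 1.23e-05 and 0.00229). The 24h value of Lamp1 did not pass in 4 of the 6 fits that left out 1 library. Without Naive replicate 1 it was -0.14 (limma adjusted p = 0.127), and leaving out Naive replicate 2, 24h replicate 1 or 24h replicate 3 gave limma adjusted p = 0.101, 0.0649 and 0.103. Lamp2, whose A isoform serves chaperone-mediated autophagy, gave 15.6, 15.3 and 10.7 TPM in the Naive libraries, 15.9, 17.1 and 15.4 TPM at 24h, 17.8, 19.0 and 18.4 TPM at 48h and 23.0, 23.8 and 20.7 TPM at 72h. The 72h libraries were highest, and the log2 fold change against Naive was 0.40 (SE 0.12, limma adjusted p = 0.00801) at 48h and 0.67 (SE 0.12, limma adjusted p = 0.000177) at 72h; at 24h the adjusted p was 0.111 (limma). Under median-of-ratios scaling these Lamp2 values were 0.16 (limma adjusted p = 0.258) and 0.38 (limma adjusted p = 0.0142), so the 48h difference did not pass there, nor under quantile normalization (limma adjusted p = 0.0936). The ratio of Lamp1 to Lamp2 was 15.7 to 17.7 in Naive libraries, 11.9 to 12.1 at 24h, 7.41 to 7.94 at 48h and 7.52 to 8.43 at 72h. Lamp1 was thus the main LAMP transcript in every library, and its excess over Lamp2 was smaller at all later times.

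Cathepsins made up the largest summed level of these gene groups in Naive cells and were much lower after activation. Their summed level was 2558, 2175 and 1746 TPM in the Naive libraries, 696.9 to 723.0 at 24h, 698.0 to 705.8 at 48h and 737.3 to 767.4 at 72h. The later groups lay close together, all far below the lowest Naive library. Of the 11 cathepsins tested without Ctsf and Ctsg, 9 were called lower at each time and Ctsc and Ctsz were not called. Of all genes tested, 21.0%, 20.7% and 19.0% were called lower at 24h, 48h and 72h. The median log2 fold change of these 11 against Naive was -1.89, -2.09 and -1.56 for 24h, 48h and 72h.

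**Figure D4:**
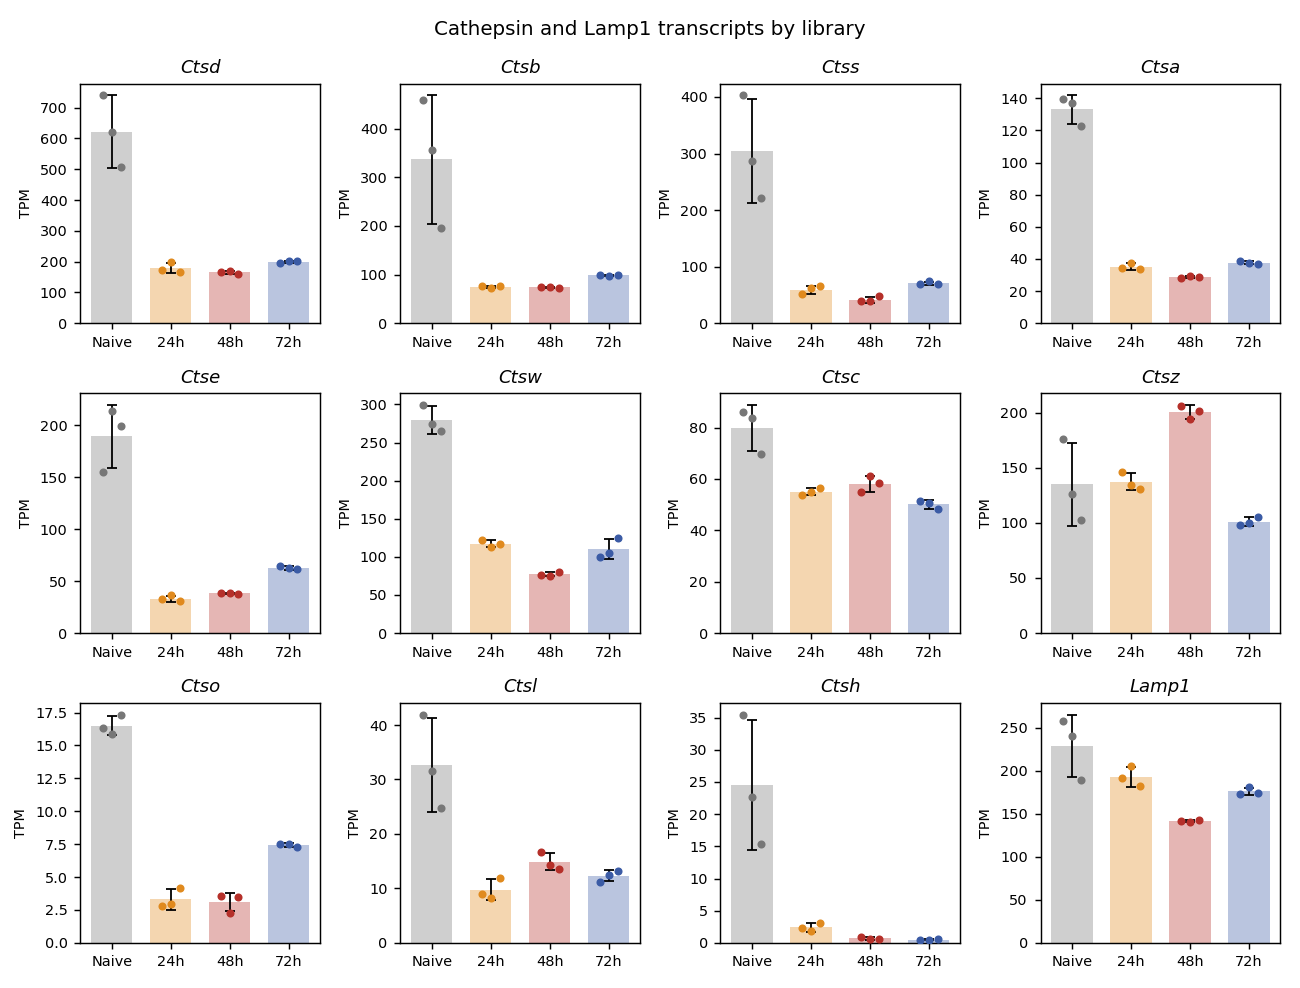
TPM of 11 cathepsins and Lamp1 by library (points), with the group mean (bar) and SD (whisker), 3 libraries a group and each panel on its own axis from 0. Most cathepsins are below Naive at all later times, Ctsz is highest at 48h, and the spread within Naive is wide for Ctsb, Ctss, Ctsh and Ctsz.

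The aspartic cathepsins both fell. Ctsd (ENSMUSG00000007891), the main aspartic protease of lysosomes and the most abundant cathepsin here in Naive cells, gave 741, 621 and 506 TPM in the Naive libraries, 173, 199 and 166 TPM at 24h, 166, 170.1 and 161 TPM at 48h and 196, 200.4 and 201 TPM at 72h. The highest later library held less than the lowest Naive one, and log2 fold changes were -1.78, -1.89 and -1.62 against Naive for 24h, 48h and 72h (SE 0.11 each; limma adjusted p = 3.72e-09, 2.1e-09 and 1.05e-08). Ctse, an aspartic protease of endosomes and immune cells, gave 155, 214 and 199 TPM in the Naive libraries, 32.4, 36.3 and 30.5 TPM at 24h, 38.7, 38.4 and 37.5 TPM at 48h and 64.8, 62.4 and 61.2 TPM at 72h. It was lowest at 24h and higher at 72h than at 48h by 0.70 (SE 0.10, limma adjusted p = 0.000124), below the fold minimum. Its log2 fold changes were -2.47, -2.27 and -1.56 against Naive for 24h, 48h and 72h (SE 0.10 each; limma adjusted p = 6.22e-11, 1.7e-10 and 7.57e-09). Unlike most cathepsins, Ctse was lowest in replicate 1 among the Naive libraries.

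Among the cysteine cathepsins of general protein breakdown, Ctsb (ENSMUSG00000021939) gave 458, 357 and 196 TPM in the Naive libraries, 76.1, 73.1 and 76.2 TPM at 24h, 74.3, 74.2 and 72.7 TPM at 48h and 99.0, 97.8 and 99.3 TPM at 72h. The Naive libraries lay far apart, and none of them overlapped a later one. Ctsb fell with log2 fold changes of -2.07, -2.09 and -1.68 against Naive for 24h, 48h and 72h (SE 0.21 each; limma adjusted p = 6.96e-07, 6.27e-07 and 5.93e-06). Ctsl gave 41.9, 31.6 and 24.7 TPM in the Naive libraries, 9.04, 8.32 and 11.98 TPM at 24h, 16.6, 14.4 and 13.6 TPM at 48h and 11.2, 12.5 and 13.2 TPM at 72h. Its mean was lowest at 24h, with log2 fold changes of -1.63, -1.06 and -1.31 against Naive for 24h, 48h and 72h (SE 0.17 each; limma adjusted p = 9.52e-07, 6.09e-05 and 8.56e-06). The call at 48h was lost without Naive replicate 1, at -0.87. Ctso, a little-studied member, gave 16.3, 15.9 and 17.3 TPM in the Naive libraries, 2.77, 2.94 and 4.20 TPM at 24h, 3.55, 2.29 and 3.45 TPM at 48h and 7.497, 7.54 and 7.30 TPM at 72h. Its Naive libraries were close together and far above the rest, and 72h stood between them and the earlier times. Log2 fold changes were -2.04, -2.11 and -1.05 against Naive for 24h, 48h and 72h (SE 0.15 each; limma adjusted p = 2.06e-08, 1.52e-08 and 1.74e-05). Ctsf gave 2.51, 2.97 and 1.47 TPM in the Naive libraries, at most 0.162 TPM at 24h and at most 0.428 TPM at 72h, and was listed at 0 in all 48h libraries.

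Ctss and Ctsh, cathepsins well known from antigen-presenting cells, fell at all times, and by log2 fold change Ctsh fell furthest of the cathepsins at each time. Ctss, which trims the invariant chain of MHC class II in B cells and macrophages, gave 403, 287 and 222 TPM in the Naive libraries, 51.6, 61.6 and 65.0 TPM at 24h, 38.6, 38.7 and 47.4 TPM at 48h and 69.0, 73.8 and 69.0 TPM at 72h. It was lowest at 48h and did not overlap Naive, with log2 fold changes of -2.30, -2.80 and -2.05 against Naive for 24h, 48h and 72h (SE 0.17 each; limma adjusted p = 2.37e-08, 3.22e-09 and 8.67e-08). Ctsh, an aminopeptidase, gave 35.5, 22.7 and 15.4 TPM in the Naive libraries, 2.33, 1.81 and 3.16 TPM at 24h, 0.935, 0.628 and 0.575 TPM at 48h and 0.401, 0.505 and 0.542 TPM at 72h. The 48h and 72h libraries were all below 1 TPM, and the 24h libraries stood between them and Naive. The mean was 50.8-fold lower at 72h than in Naive cells, and log2 fold changes, which the added 1 TPM compresses at this level, were -2.84, -3.83 and -4.03 against Naive for 24h, 48h and 72h (SE 0.24 each; limma adjusted p = 1.05e-07, 5.04e-09 and 3.18e-09). Ctsg, a serine protease of neutrophil granules, gave 2.47, 2.01 and 2.7 TPM in the Naive libraries and 0.16, 0.623 and 0.337 TPM at 24h, and was listed at 0 in all 48h and 72h libraries. Summed neutrophil markers were 127.6 to 205.4 TPM in Naive libraries, at most 2.56 TPM at 24h and at most 0.278 TPM at 48h and 72h.

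Ctsw (ENSMUSG00000024910), a cathepsin of cytotoxic lymphocytes, also fell. It gave 299, 274 and 265 TPM in the Naive libraries, 122, 112 and 117 TPM at 24h, 76.8, 75.2 and 80.4 TPM at 48h and 100.2, 104 and 125 TPM at 72h. The 48h libraries were lowest with no overlap, and Naive libraries were highest. Log2 fold changes were -1.25, -1.84 and -1.34 against Naive for 24h, 48h and 72h (SE 0.079 each; limma adjusted p = 5.83e-09, 1.24e-10 and 3.05e-09). Natural killer cells also express Ctsw. Of 10 natural killer markers 9 were called lower at 24h, 48h and 72h, beside 21.0%, 20.7% and 19.0% of all genes. Among them Klra4 and Klra8 reached 1 TPM in Naive libraries alone and had to differ. The remaining marker, Eomes, went the other way, called higher at 24h and 48h and not called at 72h. Eomes gave 29.3, 21.7 and 26.9 TPM in the Naive libraries and 95.6, 103 and 98.6 TPM at 24h. The summed level of the 10 markers was 752.6 to 1248 TPM in Naive libraries and 124.5 to 132.0 at 24h. It was 91.76 to 94.59 at 48h and 163.7 to 178.3 at 72h. Gzma gave 442, 321 and 223 TPM of this sum in Naive replicates 1, 2 and 3, and Cd7 403, 349 and 365 TPM. At 72h Gzma gave 131, 142 and 149 TPM, while Ncr1 reached at most 0.219 TPM. The part of these markers' cells in the Ctsw difference was not tested. Ctsc, dipeptidyl peptidase I, which activates granzymes, gave 86.2, 83.9 and 69.6 TPM in the Naive libraries, 53.9, 54.8 and 56.6 TPM at 24h, 55.0, 61.1 and 58.4 TPM at 48h and 51.6, 50.7 and 48.2 TPM at 72h. Each later library was below each Naive library, by less than the fold minimum, with log2 fold changes of -0.52, -0.45 and -0.66 against Naive for 24h, 48h and 72h (SE 0.079 each; limma adjusted p = 3.44e-05, 0.000141 and 4.09e-06). The ratio of Ctsw to Ctsc was 3.27 to 3.81 in Naive libraries, 2.05 to 2.26 at 24h, 1.23 to 1.4 at 48h and 1.94 to 2.6 at 72h. Ctsa, the serine carboxypeptidase that protects beta-galactosidase and neuraminidase in the lysosome, gave 139.6, 137 and 123 TPM in the Naive libraries, 34.1, 37.5 and 33.6 TPM at 24h, 28.1, 29.1 and 28.6 TPM at 48h and 38.7, 37.8 and 36.7 TPM at 72h. Its libraries were tight within each group and it fell with log2 fold changes of -1.89, -2.18 and -1.79 against Naive for 24h, 48h and 72h (SE 0.067 each; limma adjusted p = 1.5e-11, 5.23e-12 and 3.52e-11).

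Ctsz (cathepsin X, a carboxypeptidase) followed another course. It gave 176, 126 and 102 TPM in the Naive libraries, 146, 134 and 131 TPM at 24h, 206, 194 and 202 TPM at 48h and 98.0, 99.98 and 105 TPM at 72h. The 24h libraries overlapped the Naive ones (limma adjusted p = 0.7), all 48h libraries were above every other library, and the 72h libraries overlapped the lowest Naive one. The log2 fold change was 0.61 (SE 0.14, limma adjusted p = 0.00122) at 48h and -0.38 (SE 0.14, limma adjusted p = 0.0236) at 72h against Naive. Without Naive replicate 1 the 72h adjusted p was 0.0717 (limma) and the 48h log2 fold change 0.82, and leaving out 72h replicate 1 or 2 gave 72h adjusted p = 0.0632 and 0.0552 (limma). Under median-of-ratios scaling the 48h value was 0.35 (adjusted p = 0.0545, limma). Ctsz made up 5.8% to 6.89% of summed cathepsin TPM in Naive libraries, 18.6% to 20.7% at 24h, 27.8% to 29.3% at 48h and 13.3% to 13.7% at 72h. It was the most abundant cathepsin at 48h, where Ctsd held 166 ± 4.39 TPM and Ctsz 201 ± 6.26 TPM (SD, n = 3 each).

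The Naive cathepsin levels differed between libraries together with the markers of other cells. For 9 of the 13 tested cathepsins (Ctsa, Ctsb, Ctsc, Ctsd, Ctsh, Ctsl, Ctss, Ctsw and Ctsz) Naive replicate 1 was highest and replicate 3 lowest, the order of summed myeloid markers. The ratio of replicate 1 to replicate 3 was 2.34 for Ctsb, 2.3 for Ctsh and 1.82 for Ctss, beside a median of 2.7 over the 18 tested myeloid markers. It was 1.46 for Ctsd, 1.13 for Ctsw and 1.14 for Ctsa, and 0.942 for Ctso and 0.779 for Ctse. Lamp1 and Lamp2 had the same order, with a median ratio of 1.42. The median ratio was 1.11 over the tested V0 genes, 1.06 over V1, 2.16 over 10 natural killer markers and 0.903 over CD8 T cell markers. All 18 myeloid markers tested were called lower at 24h, 48h and 72h, and of 16 B cell markers 15, 16 and 16 were. Of all genes tested 21.0%, 20.7% and 19.0% were called lower. Many of these markers, among them C1qa, Csf1r and Cr2, passed the filter through their Naive values alone and had to differ. The part of these other cells in the cathepsin differences was not tested. Without Naive replicate 1, the highest in myeloid markers, 12, 10 and 11 members were called lower at 24h, 48h and 72h, and the log2 fold change at 24h was -1.80 for Ctsb, -2.07 for Ctss, -2.54 for Ctsh, -1.64 for Ctsd and -1.20 for Ctsw. Ctso, Ctse and Ctsg, with ratios under 1, and Ctsa, with a ratio near 1, were called at each time as well. Ctsg passed the filter through its Naive values alone. Some markers of other cells also had ratios under 1, among them the B cell marker Pax5 at 0.821 and the neutrophil marker Camp at 0.962. Naive replicates 2 and 3 still held 2705 and 1385 TPM of summed myeloid markers.

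**Figure D5:**
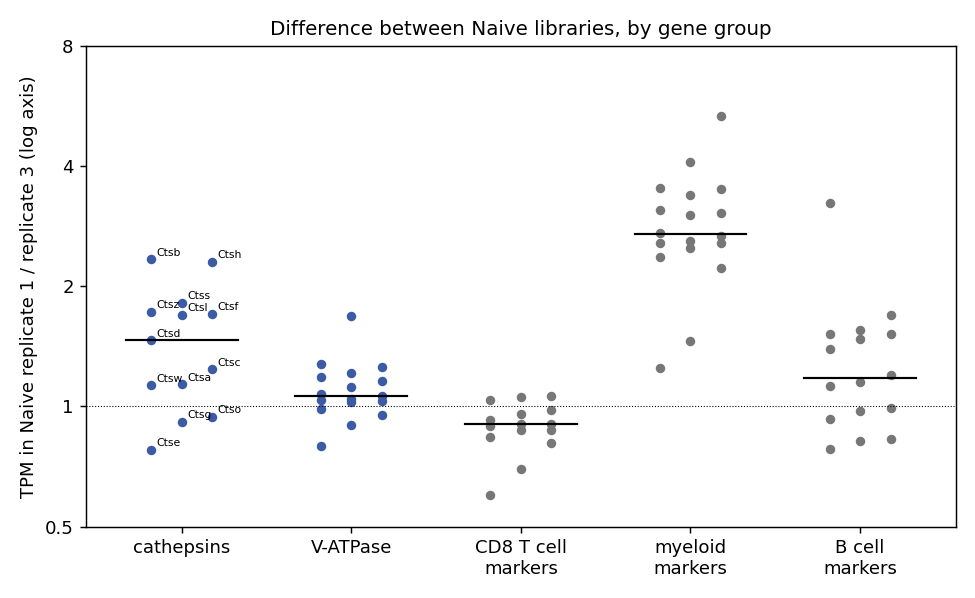
Ratio of TPM in Naive replicate 1 to replicate 3 for each tested cathepsin, V-ATPase gene and marker (points, log axis), with the median of each group (line) and a dotted line at 1. The median is 1.46 for cathepsins, 2.7 for myeloid markers and 0.903 for CD8 T cell markers, and Ctse, Ctsg and Ctso lie under 1.

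Between 24h and 48h of activation no tested member passed the fold minimum. Of 32, 0 were called higher and 0 lower by limma, where 4.95% and 3.07% of all genes were; by adjusted p alone 8 were higher and 10 lower, with 22.1% and 30.0% of all genes. At an unadjusted p under 0.05 the counts were 9 and 11, and a limma voom fit on recovered reads called 0 higher and 1 lower. The higher genes included Atp6v1a, Ctsl (0.57, SE 0.17, limma adjusted p = 0.0134), Ctsz (0.55, SE 0.14, limma adjusted p = 0.00529) and Atp6v0d1 (0.50, SE 0.055, limma adjusted p = 9.73e-06). The lower ones included Ctsh (-0.99, SE 0.24, limma adjusted p = 0.0038), Ctsw (-0.59, SE 0.079, limma adjusted p = 4.84e-05), Ctss (-0.51, SE 0.17, limma adjusted p = 0.0229) and Atp6v1h (-0.50, SE 0.077, limma adjusted p = 0.000146). The differences of Ctsl and Ctss did not pass without 24h replicate 2 (limma adjusted p = 0.0596 and 0.0667) or without 48h replicate 1 (limma adjusted p = 0.0553 and 0.0738), and that of Ctss also without 24h replicate 3 or 48h replicate 2 (limma adjusted p = 0.0809 and 0.0733). Ctsh lay nearest the fold minimum and passed it under several alternatives. It missed the adjusted p under voom and with a pseudocount of 5 (limma adjusted p = 0.0933 and 0.0967). The member that voom called lower was Ctsg.

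From 48h to 72h, when cells were off the antibody plates, 1 member was called higher and 0 lower, where 2.81% and 3.22% of all genes were. The member was Ctso, which averaged 7.45 ± 0.129 TPM at 72h and 3.10 ± 0.698 TPM at 48h (SD, n = 3 each), a log2 fold change of 1.06 (SE 0.15, limma adjusted p = 9.21e-05); the value was 0.91 without 48h replicate 2. By adjusted p alone 7 were higher and 10 lower, with 23.5% and 19.0% of all genes; at an unadjusted p under 0.05 the counts were 9 and 11, and voom called 1 higher and 1 lower. The higher ones included Ctss (0.76, SE 0.17, limma adjusted p = 0.00294), Ctse (0.70, SE 0.10, limma adjusted p = 0.000124), Ctsw (0.49, SE 0.079, limma adjusted p = 0.000292), Ctsa (0.39, SE 0.067, limma adjusted p = 0.000526) and Lamp1 (0.31, SE 0.092, limma adjusted p = 0.0152; 0.0539 without 72h replicate 2). The lower ones included Ctsz (-0.98, SE 0.14, limma adjusted p = 0.00011), Atp6v0b (-0.59, SE 0.084, limma adjusted p = 0.000115), Atp6v1g1 (-0.52, SE 0.097, limma adjusted p = 0.000924) and Atp6v0c (-0.49, SE 0.066, limma adjusted p = 7.66e-05). Of the V0 genes 4 of 6 were lower and 0 higher by adjusted p, and of the 13 cathepsins 5 were higher and 2 lower. Summed V0 TPM was thus lower at 72h than at 48h with no overlap, and summed cathepsin TPM was higher with no overlap. Each gene's SE is shared over the 4 groups, so tests between later times also carry the spread of the Naive libraries. Ctsb (73.7 ± 0.897 TPM at 48h, 98.7 ± 0.786 TPM at 72h) and Ctsd (166 ± 4.39 and 199 ± 2.61 TPM) did not overlap, yet neither passed the adjusted p. In the fit without Naive libraries, 47 values of named genes kept their direction and side of the threshold.

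The remaining 15 members did not pass the filter. Lamp5, Atp6v0a4, Atp6v1b1, Atp6v1e2, Atp6ap1l, Ctsj, Ctsm, Ctsq and Ctsr were listed at 0 in every library. Ctsk, the bone-resorption cathepsin, reached 1.02 TPM at most, and Atp6v0d2 0.699, Lamp3 0.231, Atp6v1g3 0.179, Atp6v1c2 0.163 and Atp6v0e2 0.141 TPM. For the B, C, E, d and e subunits, nearly all transcripts thus came from the widely expressed form, Atp6v1b2, Atp6v1c1, Atp6v1e1, Atp6v0d1 and Atp6v0e.

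Other lysosomal genes were also more often lower than higher against Naive. Of 80 tested genes of a list of lysosomal enzymes, membrane proteins and pump assembly factors, 7 were called higher and 33 lower at 24h against Naive, 7 higher and 31 lower at 48h, and 5 higher and 22 lower at 72h. Over all genes tested, 25.7% were called higher and 21.0% lower at 24h, 24.7% and 20.7% at 48h, and 24.5% and 19.0% at 72h. At 48h against 24h 3 were called higher and 0 lower (4.95% and 3.07% of all genes), and at 72h against 48h 3 higher and 2 lower (2.81% and 3.22% of all genes). The largest falls were those of Lgmn, Acp5 and Cd68. Lgmn, an asparagine endopeptidase that processes cathepsins, was at -4.24, -4.67 and -4.63 on the log2 scale at 24h, 48h and 72h. Acp5 was at -3.5, -2.95 and -3.23, and the macrophage-rich Cd68 at -3.45, -2.95 and -3.6. In Naive replicates 1, 2 and 3 Lgmn gave 118, 84.3 and 45.6 TPM and Cd68 96.7, 86.1 and 43.8 TPM, the order of summed myeloid markers. Acp5 gave 466, 401 and 415 TPM there. The part of other spleen cells in these falls was not tested. The rises included Gnptab, which makes the mannose 6-phosphate tag that sends hydrolases to lysosomes, at 1.47, 1.53 and 2.17, Gusb (beta-glucuronidase) at 1.41 at 24h, and Lamtor5, of the lysosomal mTORC1 scaffold, at 1.37 at 24h and 1.33 at 72h. Gnptab averaged 101 ± 6.02 TPM at 72h and 21.8 ± 2.25 TPM in Naive cells (SD, n = 3 each). At 48h against 24h the largest rises were Galc at 1.86, Gla at 1.24 and Gm2a at 1.13 (0.93 without 24h replicate 2), and at 72h against 48h Arsb at 2.14, Mcoln2 at 1.34 and Ppt1 at 1.22. Of 8 tested factors of pump assembly and regulation in that list, 3 were called higher and 1 lower at 24h, 2 and 1 at 48h, and 1 and 1 at 72h, beside the shares of all genes given above, with Tmem199 at 1.38 at 48h and Ncoa7, a V-ATPase-binding protein, at 1.6 at 72h. The largest limma adjusted p of the fold changes given for these named genes with all libraries, Tcirg1 apart, was 6.34e-05.

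Inhibitors of cathepsins and of other proteases were called in both directions. The serpins Serpinb9 and Serpinb6b were the only ones called higher at 48h against Naive, and at 24h they were joined by Cst7. Of 7 tested genes of a list of 12, 3 were called higher and 3 lower at 24h against Naive, 2 and 3 at 48h, and 5 and 1 at 72h, beside the same 25.7% and 21.0%, 24.7% and 20.7%, and 24.5% and 19.0% of all genes. Cst3 (cystatin C), a secreted inhibitor of cysteine cathepsins, averaged 69.5 ± 1.38 TPM at 24h and 396 ± 141 TPM in Naive cells (SD, n = 3 each), a log2 fold change of -2.43. It gave 538, 393 and 257 TPM in Naive replicates 1, 2 and 3, the order of summed myeloid markers. The part of other spleen cells in its fall was not tested. Cst7 (cystatin F), an inhibitor of cathepsin C in cytotoxic cells, was called higher at 24h, at 1.02, and at 72h, at 1.24. Under median-of-ratios scaling these were 0.72 and 0.93, short of the fold minimum, and the 24h value was also short of it without Naive replicate 3 (0.95) or 24h replicate 2 (0.99). Ctla2a, which resembles a cathepsin L propeptide, averaged 15.6 ± 2.11 TPM at 24h, 37.7 ± 0.433 TPM at 48h and 378 ± 23.6 TPM at 72h, with 119.9 ± 25.9 TPM in Naive cells. On the log2 scale it fell by 2.85 at 24h and by 1.62 at 48h and rose by 1.67 at 72h against Naive, and Ctla2b fell by 3.20 at 24h and by 2.03 at 48h and rose by 1.62 at 72h. Serpinb9 and Serpinb6b, intracellular serpins of which the Serpinb9 product inhibits granzyme B, rose by 4.67 and 3.24 at 24h and by 4.76 and 4.68 at 48h against Naive. At 72h against 48h both fell, by 2.6 and 2.27, while Ctla2b and Ctla2a rose by 3.65 and 3.29. The largest limma adjusted p of the fold changes given for inhibitors with all libraries was that of Ctla2b at 72h against Naive, 1.96e-05.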

How the data were processed

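Per the labels, RNA-seq was done on 12 libraries of mouse CD8 T cells in 4 groups of 3. The authors deposited TPM values per gene. The submitters' processing notes name FastQC 0.11.9, cutadapt 2.9, STAR 2.7.7a, edgeR 3.36.0 and GRCm39. How reads were counted, with which strand setting, and what was done with reads shared between genes was not given in the sources used here, so overlapping genes cannot be separated. Each library summed to 1000000 TPM. Whole reads were recovered from the values for 19180 of 19181 genes above 0 within a tolerance of 0.001, which for some genes could be too low by a whole factor.

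Values were taken as log2(TPM + 1), and the 12630 genes that reached 1 TPM in 3 or more libraries were fitted with limma 3.58.1 (R 4.3.3), with 4 group means, an intensity trend and empirical Bayes moderation. The tests were 2-sided with Benjamini-Hochberg adjustment over the genes tested in each of 5 comparisons (24h, 48h and 72h against Naive, 48h against 24h, 72h against 48h). A call needed an adjusted p under 0.05 together with a log2 fold change of 1 or more in either direction. The fold changes understate the change of low genes. The fit was tested on simulated data.

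All members were named. Values per library were given for members called in any comparison or averaging 100 TPM or more in a group, and for some others chosen after their values were seen. Of the lists of other lysosomal genes and of inhibitors, up to 3 called genes of largest rise and of largest fall per comparison were named, where the higher group averaged 10 TPM or more. Tcirg1 and Tfeb were added as a pump subunit and a regulator, and Cst7 and Ctla2b at 72h after their values were seen. The members and all lists were chosen with earlier results of these data known. Ratios and sums were not tested. Alternatives were a pseudocount of 0.1 or 5, no filter or 5 TPM, a replicate block, no fold minimum, quantile normalization or scaling by the median of ratios, a fit limited to the groups compared, and leaving out each library in turn. Chosen after seeing the data were limma voom on the recovered reads and the fit that leaves out all Naive libraries. Figures were drawn with Python 3.11.15 and matplotlib 3.10.9.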

Additional observations from a re-analysis of the deposited data

How the results depend on the processing

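Of 2647 values of named genes under alternatives, 2579 kept their direction and their side of the threshold, 29 lost a call, 37 gained one and 2 changed sign. The sign changes were those of Atp6v1b2 at 72h against Naive, at -0.077 after median-of-ratios scaling and at -0.095 after quantile normalization. Calls of low genes such as Ctsf, Ctsg and Ctso were lost mainly with a pseudocount of 5, and calls of V0 genes were gained by rescaling. With no fold minimum, members higher and lower were 4 and 25 at 24h, 6 and 22 at 48h and 5 and 24 at 72h against Naive, 8 and 10 at 48h against 24h, and 7 and 10 at 72h against 48h; over all genes the counts were 5796 and 4623, 5830 and 4636, 6000 and 4398, 2786 and 3789, and 2964 and 2402. With a pseudocount of 5, genes lower against Naive over all genes were 1641 at 24h, 1636 at 48h and 1483 at 72h, those higher and lower were 298 and 150 at 48h against 24h and 147 and 171 at 72h against 48h, and 0 members were higher at 72h against 48h. With a pseudocount of 0.1, 2 members and 700 genes were lower at 48h against 24h, and 584 genes were higher and 663 lower at 72h against 48h. At 48h against 24h, 1 member was lower with quantile normalization and 1 with voom, which called 963 genes higher. At 72h against 48h, 0 members were higher with quantile normalization, 1 was lower with median-of-ratios scaling and 1 with voom, which called 544 genes higher and 665 lower. Leaving out each replicate in turn gave 0 to 1 members lower at 48h against 24h (1, Ctsh, without 24h replicate 1, 24h replicate 2 or 48h replicate 1), 0 to 1 higher at 72h against 48h (0 without 48h replicate 2) and 0 to 1 lower there (1, Ctsz, without 48h replicate 2 or 72h replicate 3). Of 121 member differences past the adjusted p alone over the 5 comparisons, 24 missed it under an alternative, 16 of them on leaving out 1 library and 12 under another scaling. The cause of these changes was not tested.

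The labels do not say whether replicate numbers pair the samples. The correlation of same-numbered libraries' deviations ran from -0.0522 to 0.0894 over 18 pairs, and 0 pairs passed 0.1. Such values cannot exclude pairing, because deviations from means of 3 libraries carry other differences too, such as the myeloid markers of Naive libraries. With the replicate number as a block, members higher and lower were 1 and 12, 1 and 11, 1 and 11, 0 and 0, and 1 and 0, as without the block. Genes under about 1 TPM rest on few reads, so Ctsf, Ctsg and, at 48h and 72h, Ctsh are the least precise of the members tested.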
